A study of Bos taurus with 14 samples.

Results

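The genes described here carry the leukotriene B4 pathway in cattle (Bos taurus). ALOX5 encodes 5-lipoxygenase, ALOX5AP its activating protein, LTA4H leukotriene A4 hydrolase and LTB4R the leukotriene B4 receptor. They were chosen by name from the array annotation, in the knowledge that ALOX5 was among the strongest decreases in neutrophils over 7 days. Of the 4 genes, 3 were found by the symbols in the scanner files. The fourth, ALOX5, is listed there under a gene number with the description 5-lipoxygenase, and RefSeq's gene table for ARS-UCD2.0 pairs that number with its symbol. Each gene had 1 probe with 1 spot, so the pathway was read from 4 of 15011 probes.

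The neutrophil day 7 group held blood neutrophils of 4 Holstein cattle (animals 25, 26, 32 and 34), sampled 7 days after 0.2 mg/kg body weight of β-cryptoxanthin by mouth, and the neutrophil day 0 group held the same animals' neutrophils at day 0, the day of dosing. The liver day 7 and liver day 0 groups held liver of 3 other Holstein cattle (animals 58, 61 and 66) with the same agent, dose and days. The cattle were heifers or steers, and every animal received the carotenoid, which animals can cleave to vitamin A. With no undosed animals analysed here, the carotenoid and the passing of 7 days cannot be told apart. Neither can day and row of arrays on the slide, since day 7 always lay in the second row and day 0 in the first, nor tissue, slide and animals, since each tissue had its own slide and its own animals.

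Leukotrienes are lipid mediators made from arachidonic acid that phospholipases release from membranes. The activating protein presents arachidonic acid to 5-lipoxygenase, which forms leukotriene A4. The hydrolase converts this to leukotriene B4, a strong attractant of neutrophils, which they sense through LTB4R. Neutrophils are known to make and to respond to leukotriene B4, whereas hepatocytes are known mainly for breaking leukotrienes down.

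The levels below rest on single probes. The sequences that measured the enzyme at the head of the pathway and the receptor at its end are given as the scanner files hold them, 5′ to 3′, with no part marked, since of the 4 genes ALOX5 had the largest and LTB4R the steadiest changes in neutrophils.
ALOX5: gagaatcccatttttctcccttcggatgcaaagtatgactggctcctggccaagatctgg
LTB4R: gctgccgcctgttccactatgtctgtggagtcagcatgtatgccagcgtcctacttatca
Both are 60 bases long, with a GC content of 50% for ALOX5 and 53.3% for LTB4R. The first has 2 and the second 3 forward reading frames without a stop codon. The probes of ALOX5AP and LTA4H, also 60 bases long, have GC contents of 43.3% and 35%. Where in its transcript each probe lies was not analysed here.

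Levels are log2 of the background-subtracted spot signal relative to the 75th percentile of the same array, so that 0 is the level of a fairly bright spot and each unit below it is a halving of the signal. A spot is called well above background by the scanner software. The arrays had 57.1% to 76.7% of their spots in that class, and the day 7 neutrophil array of animal 34 had the fewest and the lowest median signal, 48.2 against 100.2 to 204.2 on the other 13 arrays. All 14 neutrophil markers on the array were well above background on all 8 neutrophil arrays, with sums on the linear scale between 720 and 1471 on day 7 arrays and between 899 and 1071 on day 0 arrays. In liver, 15 of 15 hepatocyte markers were well above background on every day 7 array and 14 of 15 on every day 0 array. The summed level of the 10 skeletal muscle markers was between 4.58 and 19.1 on the liver day 7 arrays, against between 0.0474 and 0.160 on the liver day 0 arrays, and the part of muscle RNA in the liver results was not tested. In bulk samples such as these, fewer cells of a type and less RNA per cell cannot be told apart.

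**Figure D1:**
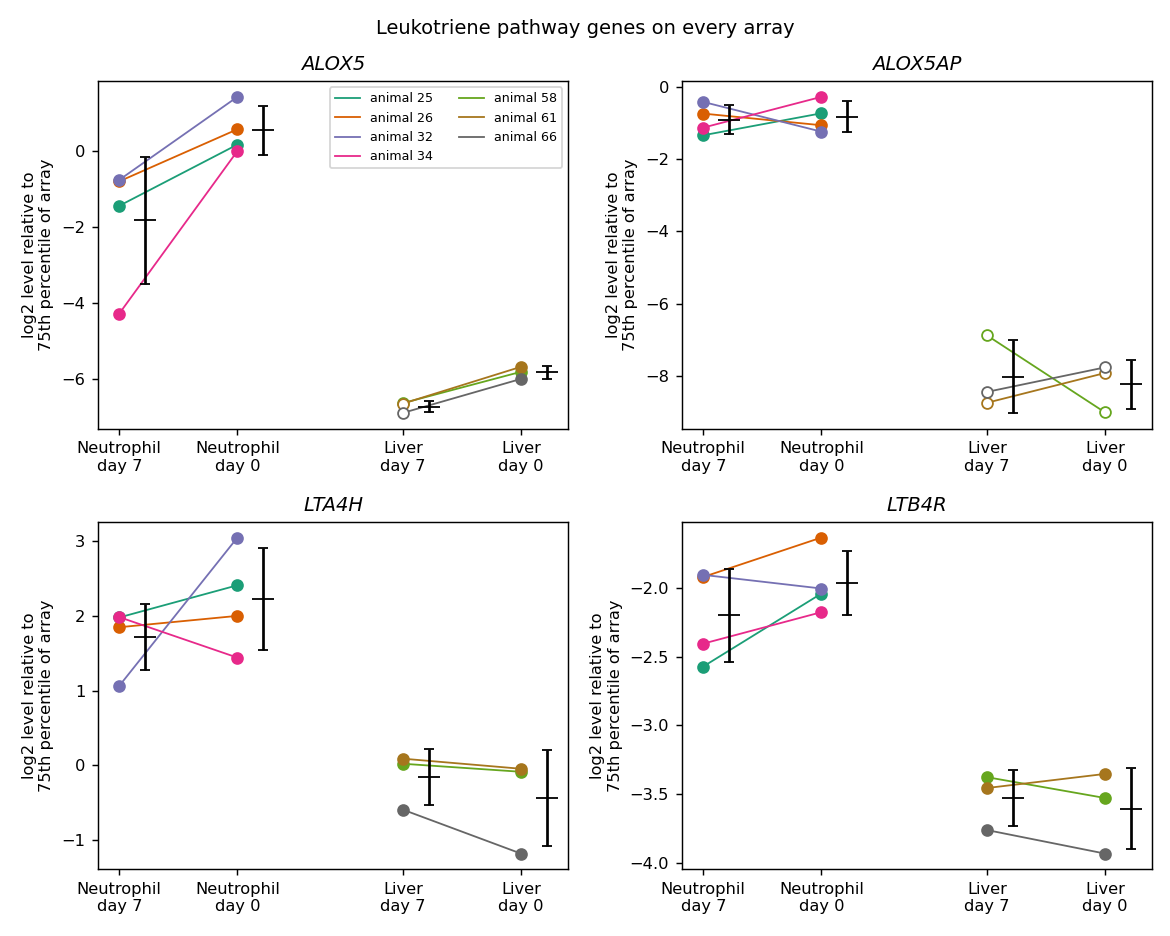
Log2 level of each gene on all 14 arrays (y axis, relative to the 75th percentile of the array) in the 4 groups. Points are animals joined across days, open where the spot was not well above background, and bars give mean and SD. ALOX5 was lower on day 7 in all 4 neutrophil animals, and every neutrophil value lay above every liver value for all 4 genes.

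ALOX5, the enzyme that commits arachidonic acid to leukotrienes, was lower in the neutrophils of all 4 animals on day 7. Its log2 levels on day 7 were -1.44 in animal 25, -0.80 in animal 26, -0.76 in animal 32 and -4.28 in animal 34, against 0.17, 0.57, 1.42 and 0.00 in the same animals on day 0. The groups did not overlap, as for 4.53% of probes in that direction, and animal 34 lay far below the other day 7 arrays, just above the lowest signal counted as well above background on its array (-4.41). The day 7 minus day 0 change was -1.61 in animal 25, -1.37 in animal 26, -2.19 in animal 32 and -4.28 in animal 34. The mean change was -2.36 ± 1.32 (SD, n = 4 animals), a mean level 5.14-fold lower on day 7. These values are the ones ALOX5 was chosen by, so they are given without a test.

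Among the 9449 probes measured in neutrophils, the mean ALOX5 change was the 4th lowest. Since ALOX5 was chosen for a strong fall there, its ranks and percentiles follow from the choice and only describe it. In animals 25, 26, 32 and 34 only 0.487%, 0.773%, 0.328% and 0.995% of probes had a lower change. The probe changes of animal 34 spread more widely (SD 1.35 over probes) than those of the other 3 animals (0.565 to 0.768). Without animal 34 the mean ALOX5 change was -1.72 ± 0.42 (SD, n = 3 animals), the 10th lowest. A lower level in all 4 animals was seen for 13.3% of probes (1254). Besides ALOX5, whose own smallest change of -1.37 set the cut, 1 probe was lower in all 4 by at least that much. It has no gene symbol and is described in the files as a transcribed locus similar to a zinc finger protein, with changes of -1.59, -2.91, -1.75 and -2.13 in animals 25, 26, 32 and 34, and was singled out after its values were seen.

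No probe passed the test over all probes in neutrophils: 0% had an adjusted p under 0.05 (limma, Benjamini-Hochberg), while 1267 probes (13.4%) had an unadjusted p under 0.05, and 24 probes passed in 1 fit over all 14 arrays.

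ALOX5AP, the partner that 5-lipoxygenase needs in intact cells, had changes of both signs in neutrophils. Its levels on day 7 were -1.33, -0.73, -0.41 and -1.12 in animals 25, 26, 32 and 34, against -0.72, -1.06, -1.23 and -0.27 on day 0. The days overlapped, with 2 animals lower and 2 higher. The changes of -0.61, 0.32, 0.83 and -0.85 in animals 25, 26, 32 and 34 averaged -0.08 ± 0.79 (SD, n = 4). That mean turned positive without animal 25 (0.10) or without animal 34 (0.18).

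LTA4H, which makes leukotriene B4 from leukotriene A4, had day 7 levels of 1.98, 1.85, 1.06 and 1.98 in animals 25, 26, 32 and 34, against 2.41, 2.0, 3.05 and 1.44 on day 0. It was lower in 3 animals and higher in animal 34, and the days overlapped. Its changes were -0.43, -0.15, -1.98 and 0.54 in animals 25, 26, 32 and 34, with a mean of -0.51 ± 1.07 (SD, n = 4). The change in animal 32 was below that of all but 0.561% of probes in the animal and carried most of the mean, which was -0.01 without animal 32.

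LTB4R, the receptor, had the steadiest change in neutrophils, with the smallest SD of the 4 genes. It was -2.57, -1.92, -1.90 and -2.40 on day 7 in animals 25, 26, 32 and 34, against -2.04, -1.63, -2.0 and -2.18 on day 0. The days overlapped, and the changes of -0.53, -0.29, 0.10 and -0.23 in animals 25, 26, 32 and 34 averaged -0.24 ± 0.26 (SD, n = 4). Apart from the LTA4H change of animal 32, the neutrophil changes of ALOX5AP, LTA4H and LTB4R all fell within the 5th to 95th percentile of the probes in the same animal. ALOX5, chosen for its fall, lay below the 5th percentile in all 4 animals.

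**Figure D2:**
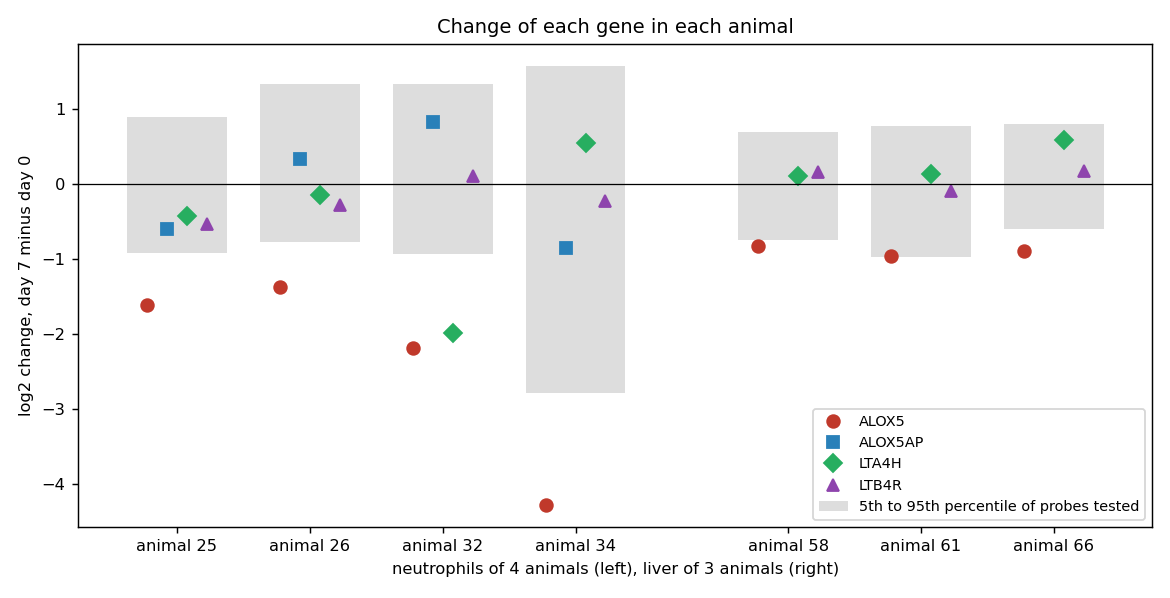
Log2 change, day 7 minus day 0, of each gene in each animal (y axis), with neutrophil animals on the left and liver animals on the right, over a grey bar for the 5th to 95th percentile of all probes tested in that animal. ALOX5 lies below the bar in the 4 neutrophil animals, at -1.37 to -4.28, and ALOX5AP in liver is not drawn because it was not well above background there.

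In liver ALOX5 was close to the limit of detection. Its level on day 7 was -6.63, -6.65 and -6.89 in animals 58, 61 and 66, none of them well above background, against -5.81, -5.68 and -6.00 on day 0, all well above background. The days did not overlap, as for 7.95% of probes in the same direction, and the fitted difference was -0.90 ± 0.10 (SE, n = 3 animals; limma adjusted p = 0.0225). No fold is given, since the lowest signals counted as well above background on the day 7 arrays averaged at least as bright as the day 0 ALOX5 signal. In the same test 1.31% of 10933 probes were called lower and 3.98% were called in either direction. The call was lost when any 1 of the 3 animals was left out (adjusted p 0.0951 to 0.156), with background correction by normexp before quantile normalization (-0.15, adjusted p = 0.426), without the filter on dim probes (adjusted p = 0.135), with the trend along the array rows removed (-0.85, adjusted p = 0.0729) and in 1 fit over all 14 arrays (adjusted p = 0.963). Neutrophil markers were also sparse on the liver arrays, with 7 of 14 well above background on every day 7 array and 8 of 14 on every day 0 array. They summed to between 5.31 and 6.17 on day 7 arrays and between 6.72 and 13.7 on day 0 arrays, and the part of blood cells in the liver ALOX5 values was not tested.

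The other members did not pass the test in liver. LTA4H levels were 0.02, 0.09 and -0.59 on day 7 in animals 58, 61 and 66, against -0.08, -0.04 and -1.18 on day 0. The difference of 0.28 ± 0.14 (SE, n = 3 animals) had a limma adjusted p of 0.405, with a higher value on day 7 in 3 of 3 animals, as for 17.8% of probes. LTB4R levels were -3.38, -3.46 and -3.76 on day 7 and -3.53, -3.35 and -3.93 on day 0 in animals 58, 61 and 66, a difference of 0.07 ± 0.11 (SE, n = 3 animals; limma adjusted p = 0.79). ALOX5AP was not well above background on any of the 6 liver arrays and was not tested there.

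All 4 genes had higher levels in neutrophils than in liver on both days. On day 0 the ALOX5 level averaged 0.54 ± 0.64 (SD, n = 4) in neutrophils and -5.83 ± 0.16 (SD, n = 3) in liver, a difference of 6.37 ± 0.33 (SE; limma adjusted p = 4.43e-07), or 82.6-fold. Because ALOX5 was chosen for a fall from its day 0 level in neutrophils, the day 7 comparison stands beside it. On day 7 the level averaged -1.82 ± 1.67 (SD, n = 4) in neutrophils and -6.72 ± 0.14 (SD, n = 3) in liver, where no array was well above background, so that ALOX5 was at least 15.03-fold higher in neutrophils (limma adjusted p = 0.000618). A bound of this kind replaces the level of a dim array by the lowest signal counted as well above background there, where that is the higher. Without animal 34 the fitted day 7 difference of 4.90 became 5.72.

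ALOX5AP averaged -0.90 ± 0.41 (SD, n = 4) in day 7 neutrophils and -0.82 ± 0.42 (SD, n = 4) in day 0 neutrophils, while all liver arrays were not well above background. It was at least 28.4-fold higher in neutrophils on day 7 (limma adjusted p = 2.86e-06) and at least 57.2-fold higher on day 0 (limma adjusted p = 2.67e-07).

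LTA4H was well above background on all 14 arrays and differed less between the tissues. It averaged 1.72 ± 0.44 in day 7 neutrophils (SD, n = 4) and -0.16 ± 0.38 in day 7 liver (SD, n = 3), a 3.68-fold difference (limma adjusted p = 0.000977). On day 0 it averaged 2.23 ± 0.68 in neutrophils (SD, n = 4) and -0.44 ± 0.64 in liver (SD, n = 3), a 6.32-fold difference (limma adjusted p = 0.000413).

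LTB4R differed least. It averaged -2.20 ± 0.34 in day 7 neutrophils (SD, n = 4) and -3.53 ± 0.20 in day 7 liver (SD, n = 3), a 2.52-fold difference (limma adjusted p = 0.0027). On day 0 the averages were -1.96 ± 0.23 in neutrophils (SD, n = 4) and -3.61 ± 0.30 in liver (SD, n = 3), a 3.12-fold difference (limma adjusted p = 9.45e-05).

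No neutrophil array overlapped a liver array for any of the 4 genes on either day, which also held for 36.2% of probes on day 7 and 43.3% on day 0 in the same direction. Higher calls in neutrophils made up 35.0% of 10194 probes on day 7 and 43.5% of 11494 probes on day 0, so a call is common in these comparisons. Under normexp followed by quantile normalization, the ALOX5 difference was 2.23 on day 7 and 4.01 on day 0, and the ALOX5AP difference 3.17 on day 7 and 3.22 on day 0. All 4 genes passed the test on both days in every alternative run in which they were tested.

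In order of level, ALOX5 was highest in day 0 neutrophils, then in day 7 neutrophils, and both stood above liver with no overlap. Day 7 liver, not well above background on any array, cannot be ranked against day 0 liver. For ALOX5AP, LTA4H and LTB4R both neutrophil groups stood above both liver groups, and the 2 days of a tissue overlapped.

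The wider eicosanoid genes were read from a list of 74 genes in 6 groups, of which 49 were on the array. In neutrophils 39 of them could be tested and 0 passed the test in either direction (4 had an unadjusted p under 0.05, as had 13.4% of all probes, adjusted p 0.313 to 0.995). Their median change was -0.19, beside -0.07 over all probes tested. Lower in all 4 animals were 4 of the 39, where 13.3% of all probes were. They are PTGER2, a prostaglandin E2 receptor (mean change -0.81), LPCAT3 (-0.79) and MBOAT7 (-0.73), which put polyunsaturated fatty acids back into phospholipids, and GPX1, a glutathione peroxidase (-0.54). Higher in all 4 animals were 3 of the 39, where 11.2% of all probes were, namely MGST1 (0.69), a microsomal glutathione transferase, PRKACB (0.69), a catalytic subunit of protein kinase A, which phosphorylates 5-lipoxygenase, and PLA2G16 (0.70), a phospholipase. Without animal 34 the means were -0.41 for LPCAT3, whose spot in that animal was not well above background on day 7, -0.39 for MBOAT7 and -0.24 for GPX1, while those of the other 4 genes moved by less.

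Among the genes that supply and regulate 5-lipoxygenase, several low-level ones had values in animal 34 far from the other animals. PLA2G4A, the cytosolic phospholipase that releases arachidonic acid, had changes of -0.78, 0.56, 1.41 and -2.28 in animals 25, 26, 32 and 34. MAPKAPK2, a kinase of 5-lipoxygenase, had changes of -1.10, 0.73, 0.68 and -4.08 in animals 25, 26, 32 and 34. COTL1, the coactosin-like protein that binds 5-lipoxygenase, ranged only from -0.35 to 0.63 across the animals. The lowest mean change of the 39 genes was that of PLA2G15, a lysosomal phospholipase (-1.36), with -1.08, -0.49, 0.17 and -4.02 in animals 25, 26, 32 and 34. The spots of PLA2G4A, MAPKAPK2 and PLA2G15 were not well above background on the day 7 array of animal 34, so that array gives only a bound for them.

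**Figure D3:**
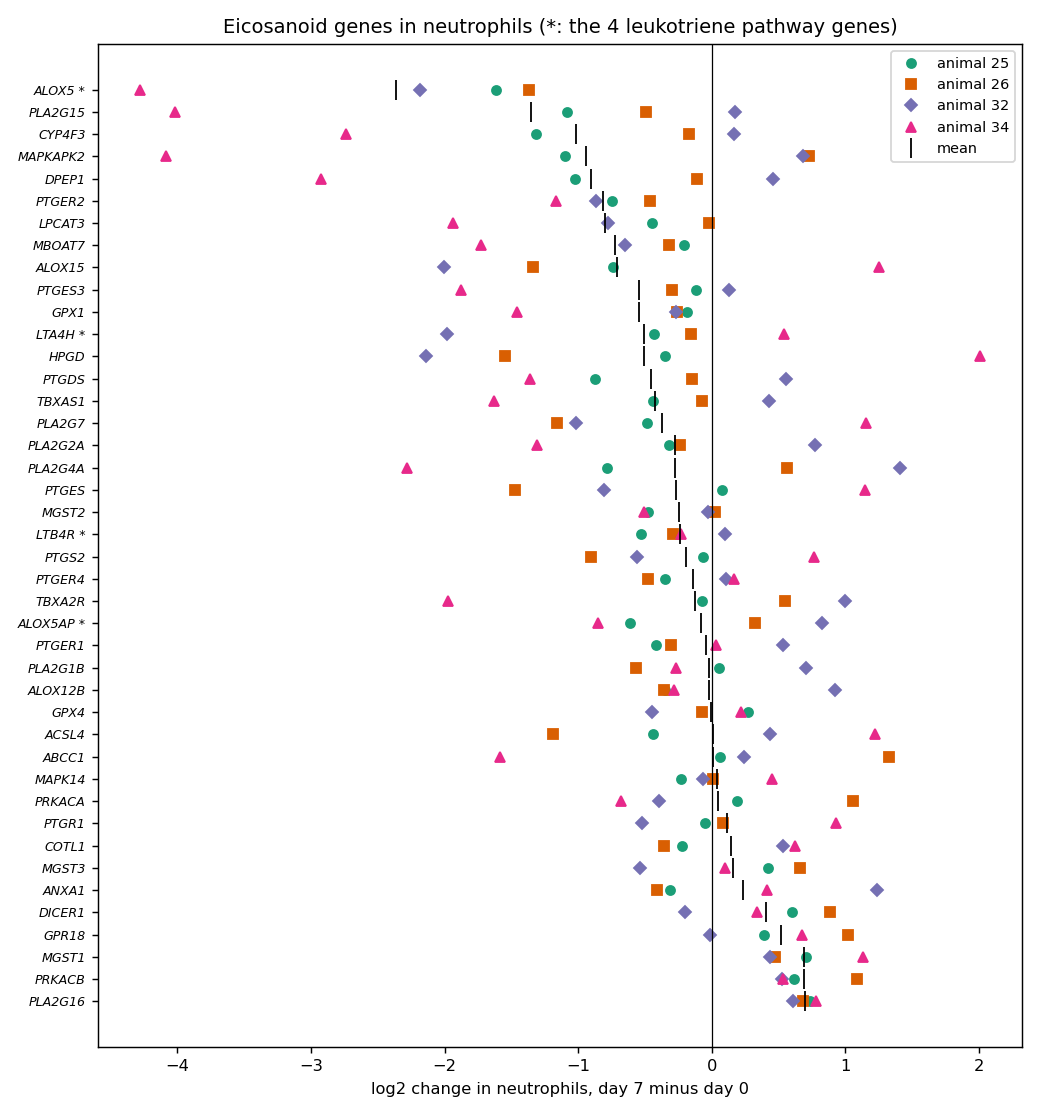
Log2 change, day 7 minus day 0, in neutrophils (x axis) of the 4 leukotriene pathway genes, marked with an asterisk, and 38 of the 39 tested eicosanoid genes, 1 symbol per animal and a bar for the mean. ALOX5 has the lowest mean, -2.36, and animal 34 holds the lowest values of many genes.

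In liver 41 of the listed genes could be tested and 0 passed (14 had an unadjusted p under 0.05, as had 17.9% of all probes, adjusted p 0.0521 to 0.98), with a median change of 0.01 beside -0.04 over all probes. PTGER1, a prostaglandin E2 receptor, had the smallest adjusted p, with a change of 0.73 ± 0.12 (SE, n = 3 animals) and a higher value in 3 of 3. It passed under 3 alternatives: quantile normalization (adjusted p = 0.0488), normexp with quantile normalization (0.0225) and the filter for probes well above background on every array (0.0303). PLA2G15 passed under quantile normalization (-2.24, adjusted p = 0.0188) and under normexp with quantile normalization (-0.45, adjusted p = 0.0461), but it was well above background on none of the day 7 arrays, so no fold is given. PLA2G2A, a secreted phospholipase, passed only without animal 66 (1.71, adjusted p = 0.0419), against 1.32 (adjusted p = 0.0922) with all 3 animals. The PTGER1 and PLA2G2A probes lie in array rows 12 and 32, and that of PLA2G15 in row 192. With the trend along the array rows removed, no listed gene passed, and 33 of all probes were called in place of 435. The part of array position in these changes was not tested.

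Between tissues the same list held large differences both ways. On day 7, 15 of 38 tested genes were higher and 16 lower in neutrophils, beside 35.0% and 34.0% of all probes, and on day 0, 23 of 45 were higher and 18 lower, beside 43.5% and 39.7%. Their median difference was -0.15 on day 7 and 0.80 on day 0, beside 0.03 and 0.12 over all probes. The medians stayed the same with dim genes at their bounds. PLA2G4A, MAPKAPK2, PLA2G15, PLA2G1B, DPEP1 and SLCO2A1 were among the genes tested on day 0 but not on day 7, when neither tissue had all its arrays well above background for them.

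Opposing roles are mixed in the list for the release of arachidonic acid and its return to phospholipids, so its counts do not measure supply. In neutrophils it had 8 genes higher and 2 lower of 10 on day 0, beside 43.5% and 39.7% of all probes. On day 7 it had 4 higher and 2 lower of 7, beside 35.0% and 34.0%. ANXA1, the annexin that restrains phospholipase activity, led it with a difference of 7.89 ± 0.38 on day 7 and 7.27 ± 0.23 on day 0 (SE; limma adjusted p = 4.94e-07 and 3.52e-08). PLA2G4A was higher by 3.09 ± 0.21 on day 0 (SE; limma adjusted p = 1.87e-06). LPCAT3 was lower in neutrophils on both days, by -3.95 on day 7, with 3 of 4 neutrophil arrays well above background, and -2.68 on day 0. Of the regulators of 5-lipoxygenase, 5 were higher and 3 lower of 9 on day 0, and 4 and 1 of 7 on day 7. COTL1 led with 6.05 ± 0.32 on day 7 and 5.72 ± 0.20 on day 0.

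Of the genes for cysteinyl leukotrienes 2 were higher and 3 lower of 5 on day 0, and of the other receptors and breakdown enzymes likewise 2 and 3 of 5. Over all probes these shares were 43.5% and 39.7%. On day 7 the counts were 1 and 3 of 4 for the first group and 1 and 3 of 5 for the second. The day 7 shares over all probes were 35.0% and 34.0%. MGST1 and MGST3 were lower in neutrophils on day 0, by -3.88 ± 0.22 and -3.22 ± 0.24 (SE). PTGR2, a reductase of prostaglandins, was lower by -3.88 on day 7 and -4.64 on day 0, and CYP4F3, the human omega-hydroxylase of leukotriene B4, by -3.16 on day 7 and -2.22 on day 0. Both passed on either day (limma, largest adjusted p = 0.00501). The PTGR2 spot was well above background on 2 of 4 neutrophil arrays on day 7 and 1 of 4 on day 0, and CYP4F3 on 3 of 4 on day 7.

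Of the prostanoid genes, 4 were higher and 7 lower of 14 on day 0, beside 43.5% and 39.7% of all probes. On day 7 the counts were 3 and 7 of 13, beside 35.0% and 34.0%. The receptors PTGER4 and PTGER2 and thromboxane synthase, TBXAS1, were higher in neutrophils on day 0, by 7.43, 5.78 and 5.75, with PTGER2 well above background on 2 of 3 liver arrays. The receptor PTGER3 was lower there, at least 25.7-fold on day 7 and at least 32.7-fold on day 0. Prostacyclin synthase, PTGIS, was lower in neutrophils, at least 12.3-fold on day 7 and by -5.79 on day 0, when 1 of 4 neutrophil arrays was well above background. Prostaglandin D synthase, PTGDS, was lower by -2.84 on day 0.

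**Figure D4:**
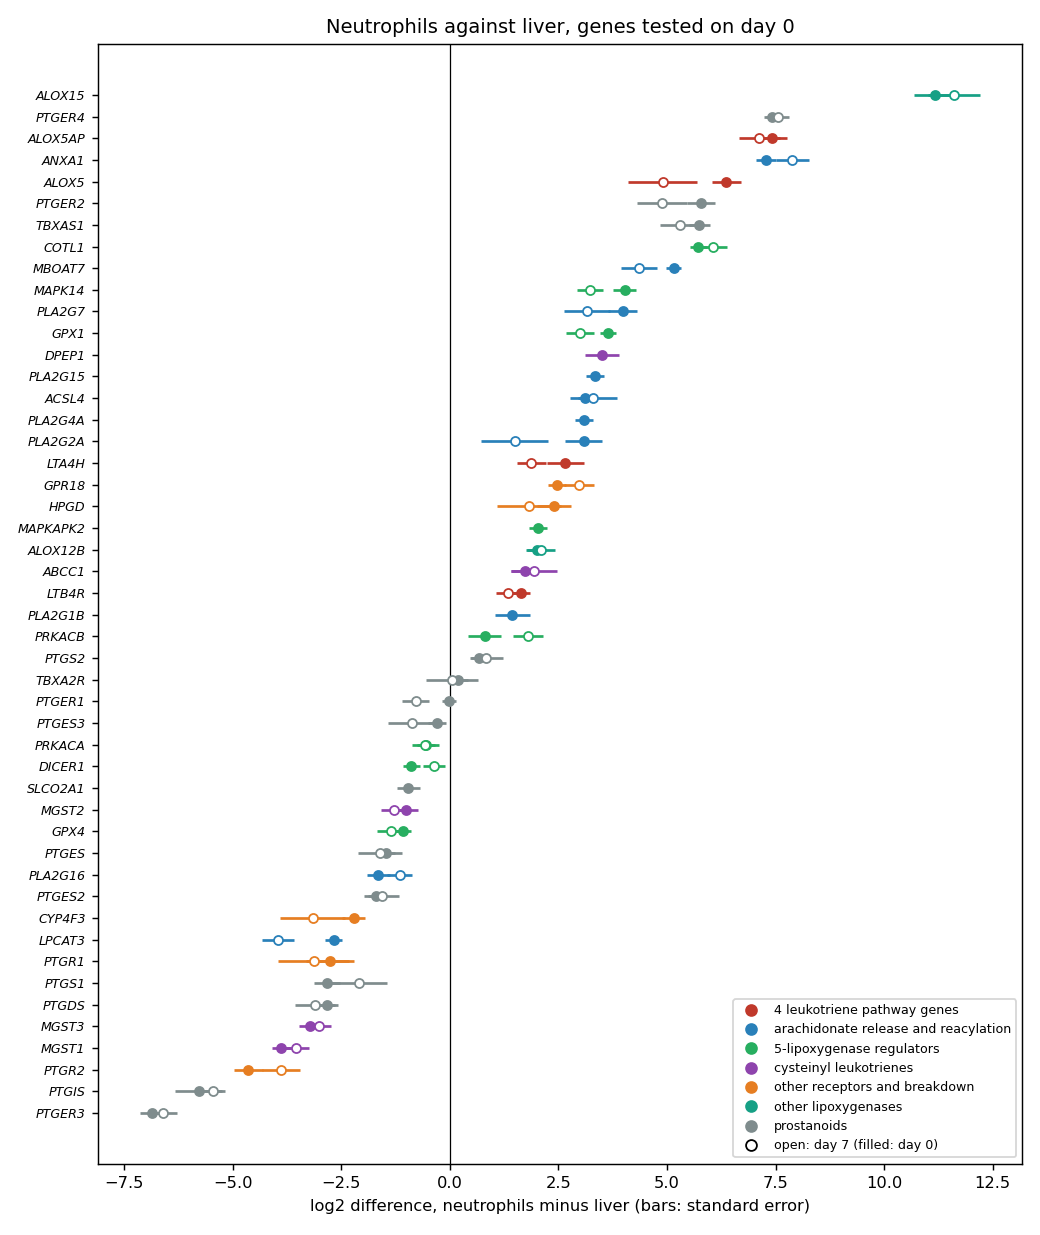
Log2 difference between neutrophils and liver (x axis, bars give the SE) for the 4 leukotriene pathway genes and 44 of the 45 listed eicosanoid genes tested on day 0, with open points for day 7. The 4 genes, in red, lie to the right of 0 on both days. Points are fitted differences, and those of genes not well above background in 1 tissue, among them ALOX5AP on both days and ALOX5 on day 7, rest on a dim side for which only a bound was measured.

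ALOX15, a lipoxygenase that acts on another carbon of arachidonic acid and is abundant in eosinophils of other mammals, had the largest difference of the listed genes, 11.6 ± 0.60 on day 7 and 11.2 ± 0.50 on day 0 (SE; limma adjusted p = 6.72e-07 and 1.85e-07). In liver it was well above background on 1 of 3 arrays on day 7 and 3 of 3 on day 0. It had a second probe, which was not well above background on any array, so its values rest on the brighter probe. In neutrophils its level on day 7 was 4.70, 4.70, 5.05 and 6.98 in animals 25, 26, 32 and 34, against 5.44, 6.03, 7.05 and 5.73 on day 0. It was lower on day 7 in animals 25, 26 and 32, with changes of -0.74, -1.34 and -2.0, and higher by 1.26 in animal 34. Its change did not pass the test (mean -0.71 ± 1.41, SD, n = 4; limma adjusted p = 0.534). HPGD, which inactivates prostaglandins, and PLA2G7, which breaks down platelet-activating factor, had the same signs, negative in animals 25, 26 and 32 and positive in animal 34 (2.01 and 1.16).

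Eosinophils are granulocytes that a neutrophil preparation can hold, and they also express ALOX5. Of 11 eosinophil markers listed, 2 were on the array, CCR3 and HDC. CCR3, the eotaxin receptor, had day 7 levels of -0.42, -0.97, -0.63 and -0.75 in animals 25, 26, 32 and 34, against 0.63, 0.75, 1.89 and 0.19 on day 0. The days did not overlap, as for 4.53% of probes in that direction, and all 4 animals were lower on day 7, by a mean of -1.56 ± 0.73 (SD, n = 4; limma adjusted p = 0.301). HDC, the enzyme that makes histamine, was well above background on 2 of 4 arrays of each day, with mean log2 levels of -5.87 on day 7 and -5.82 on day 0. Both markers together summed to between 0.536 and 0.776 on day 7 arrays, against between 1.15 and 3.72 on day 0 arrays, and nearly all of each sum is CCR3.

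No marker of the other blood cell types passed the test between the days, but neither did any of the 9449 probes, and some markers could not be tested. The lack of a call therefore cannot show an unchanged mix of cells. For 11 T and NK cell markers the day 7 arrays summed to between 22.9 and 104.5, against between 10.9 and 36.9 for day 0 arrays, ranges that overlap, and GZMB, a protease of cytotoxic cells, was the brightest of them (mean log2 level 5.08 on day 7 and 3.78 on day 0). For 5 B and plasma cell markers these sums were between 7.49 and 13.0 on day 7 and between 3.33 and 6.50 on day 0, without overlap. The brightest was BLK (mean log2 level 2.48 on day 7 and 1.48 on day 0). No share over all probes is given for such sums, so how common a gap of this kind is stays unknown. For 9 monocyte and macrophage markers the sums were between 16.2 and 25.4 on day 7 and between 17.7 and 26.5 on day 0, ranges that overlap. Most of each sum was CD68 (mean log2 level 4.02 on day 7 and 4.24 on day 0), so the sums mainly follow that gene. In liver CD68 averaged -0.51 on day 7 and -0.40 on day 0. The median change of the 6 of these markers that could be tested was 0.44. The part of these cell types in the ALOX5 values was not tested.

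**Figure D5:**
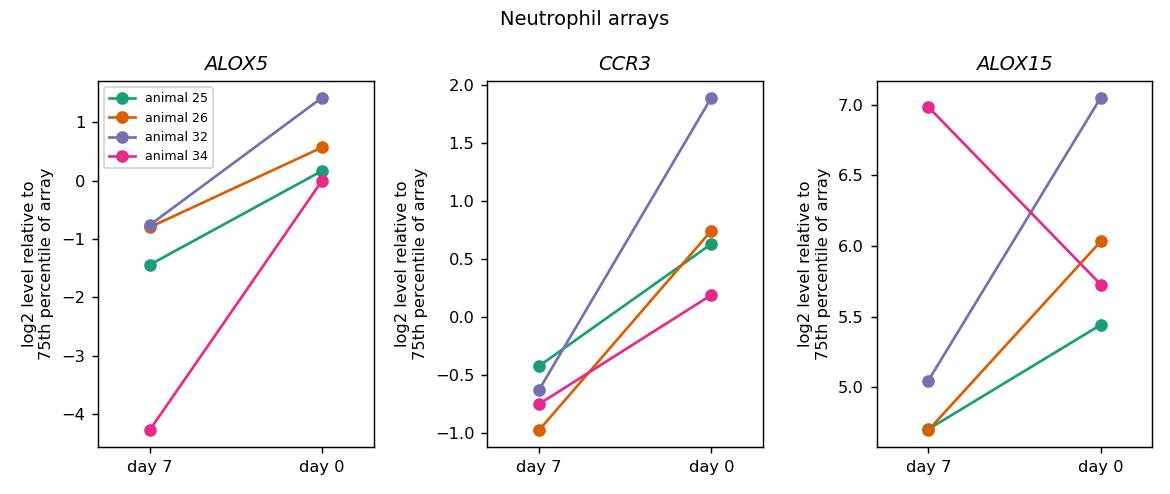
Log2 level relative to the 75th percentile of the array (y axis) of ALOX5, CCR3 and ALOX15 in neutrophils on day 7 and day 0, 1 line per animal. ALOX5 and CCR3 were lower on day 7 in all 4 animals, and ALOX15 in 3, with animal 34 at 6.98 on day 7 against 5.73 on day 0.

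The genes most like ALOX5 across the 8 neutrophil arrays, by Pearson correlation of log2 levels among 4146 genes well above background on all of them, were GPR4, a proton-sensing receptor (0.991), GPI, glucose-6-phosphate isomerase (0.991), WDR1, an actin-disassembly factor (0.972), BSDC1 (0.971) and KCTD11 (0.970). GPR4 had changes of -1.06, -0.87, -1.44 and -2.30 and GPI of -1.10, -0.50, -1.43 and -3.12 in animals 25, 26, 32 and 34. Both were picked for likeness to ALOX5 on these arrays, so falls in the same animals follow from the choice. The 8 arrays share animals in pairs and a slide, and the day 7 array of animal 34 weighs heavily. Without it, over 7 arrays, the 5 highest correlations were those of AHR (0.992), TKT (0.975), GPR4 (0.972), CAMK1 (0.970) and GPI (0.966). GPR4 and GPI were in both lists, but the 7 arrays are part of the 8, so this is no independent repeat. ALOX15 had a correlation of -0.06 with ALOX5 over 8 arrays and 0.96 over those 7. ALOX5AP, LTA4H and LTB4R had 0.16, 0.33 and 0.61 over 8 arrays and -0.15, 0.65 and 0.51 over 7.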

How the data were processed

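Single-colour (Cy3) arrays of a bovine design measured 14 samples. The intensity values deposited by the authors are background-subtracted signals, made per the file headers with Agilent Feature Extraction (9.5.1.1). The mean and background intensity columns served 1 alternative. The log2 values deposited by the authors hold the same signals with a constant near the 75th percentile taken off each array. Flags for outlying and well measured spots are other columns of that software, per the file headers.

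Here each signal was put on the log2 scale and the 75th percentile of its array subtracted. Control spots and outlying spots (0 to 18 per array) were left out, and repeated spots were averaged. A single symbol was found for 7061 of the 15011 probes, several for 30 and none for 7920. The filter kept probes that all arrays of 1 or both groups of a comparison showed well above background. Limma 3.58.1 (R 4.3.3) was run with animal as a block between days and without it between tissues. Two-sided p-values were adjusted over all probes by Benjamini-Hochberg, with a threshold of 0.05. SE are those of the fit. The scripts were tested on simulated data. The labels pair the days by animal number, and deviations from the group means within a pair correlated at 0.66 for animal 58, 0.36 for 61 and 0.68 for 66, and 0.63 for 25, 0.36 for 26, -0.02 for 32 and 0.25 for 34. The number of arrays limits the precision, and p-values measure the spread between these animals.

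The genes, lists and tests were chosen with earlier results of these data known. Named are all members, listed eicosanoid genes past the threshold or among the 6 largest tissue differences in each direction, and the 5 genes most correlated with ALOX5. Other listed genes were named for their role or after their values were seen. A gene with several probes was read from its brightest. The values of 1 listed gene are not reported here, though the counts include it. For the genome build, the sources used here give nothing. Alternatives were no block, quantile normalization, normexp (offset 50) with quantile normalization, 2 other filters on dim probes, the authors' values, removal of a loess trend along array rows, 1 fit over all arrays and each animal left out.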

Additional observations from a re-analysis of the deposited data

Results flagged for a closer look

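In groups of 4 arrays, 1 array stood apart from the other 3 for 3 of the 37 gene and group combinations looked at, and chance gives about 1 in 20. LTA4H in day 7 neutrophils was 1.06 in animal 32, against 1.85 to 1.98 in the other animals. ALOX15 in day 7 neutrophils was 6.98 in animal 34, against 4.70 to 5.05. LPCAT3 in day 7 neutrophils was -5.42 in animal 34, against -4.26 to -4.11, but its spot there was not well above background, where the lowest signal counted as such was -4.41, so the array gives only a bound. The last 2 are on the day 7 array of animal 34, which had the fewest spots well above background.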

How the results depend on the processing

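With the animal block left out, so that the pairing of days was not used, the count of probes called in liver was 210 in place of 435. It was 0 without the filter on dim probes, 33 with the row trend removed, 177 in 1 fit over all arrays and 0 to 159 with an animal left out. Calls in neutrophils were 24 in 1 fit over all arrays, against 0 otherwise. Listed eicosanoid genes called in liver were 2 with quantile normalization, 2 with normexp and quantile normalization, 1 with the filter for every array and 0 to 1 with an animal left out, against 0. The ALOX5 difference in liver was no longer called with normexp (-0.15), without the dim filter (-0.90), with the row trend removed (-0.85), in 1 fit over all arrays (-0.90) or with an animal left out (-0.93 to -0.86). The block changed no call of a member in liver. The ALOX5AP mean in neutrophils was -0.38 to 0.18 with an animal left out. Calls between tissues on day 7 were 4634 with the filter for every array, against 7035. These causes were not tested. The neutrophil ALOX5 mean was -2.69 to -1.72 over all alternatives. The likeness to ALOX5 without the day 7 array of animal 34 was chosen after seeing the data. Weak signal limits ALOX5AP in liver on both days, and ALOX5 in liver on day 7, to bounds.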
